A study of Oryza sativa with 4 samples.

Results

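On rice chromosome 1, 4 transcripts that differ strongly between senescing and control coleoptiles lie close together, and 3 of them are annotated as amino acid permeases. They were taken by position. Every listed transcript whose locus ID in the MSU rice annotation falls from LOC_Os01g71690 to LOC_Os01g71740 was a member, which gave 4 of the 3439 transcripts in the tables. The stretch was picked for LOC_Os01g71740, the amino acid transporter that the study measured by quantitative PCR. It was chosen by the FPKM of these same libraries, in tables that hold only transcripts selected on a change between the groups, so the levels below are a description. The name amino acid transporter cluster held for 3 members. The remaining one, LOC_Os01g71690, is annotated by the study as a recA protein and is not filed by it among transporters.

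The coleoptile is the short-lived sheath through which a grass seedling pushes its first leaf. Wild-type seedlings of the rice strain PB1 were compared in 2 groups of coleoptiles. The day 2 group (2 libraries) was 9 days post germination and had been brought from water into air, which sets off senescence. The control group (2 libraries) was 7 days post germination and was sampled as the seedlings left the water. Seeds of both groups had first germinated under water. The treatment label reads submergence for all 4 libraries, so titles and ages separate the groups. Age, air and senescence differ together between them and cannot be told apart.

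Amino acid permeases are membrane proteins that carry amino acids across the plasma membrane or an organelle membrane. During senescence, proteins of the dying organ are broken down and the freed amino acids leave through such carriers for growing tissues. The study described the 3 permeases by their likeness to the Arabidopsis protein BAT1 (bidirectional amino acid transporter). Arabidopsis BAT1 was named for moving amino acids both into and out of yeast cells. LOC_Os01g71700 and LOC_Os01g71740 were described as highly similar to it and LOC_Os01g71710 as moderately similar. RecA proteins are of another kind. They pair DNA strands in recombination and repair, and plants keep relatives of the bacterial protein in their organelles.

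The study designed 1 primer pair in the stretch, for LOC_Os01g71740, and it also predicted 2 of its miRNAs to target permeases here. These short sequences are shown because the study assigned them to different sets of copies: the primers to 1 copy, miRNA_75 to all 3 permeases and miRNA_23 to LOC_Os01g71740 alone. Capitals mark bases 2 to 8 of each miRNA, for orientation only. The miRNAs are written as DNA, as in the study's list, and all sequences run 5′ to 3′.
Forward primer, LOC_Os01g71740: caaggagacgttcaactacacg
Reverse primer, LOC_Os01g71740: cgtcaacgttggtgacagg
miRNA_75: tGGAATGTtgtctggttcaag
miRNA_23: cTCGTCCTaggtgaaacagcc
The marked bases differ between the miRNAs, and whether this relates to their target sets was not tested. Neither the primers nor the miRNAs were aligned to the copies, since no sequence of the loci was used here.

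All members were higher at day 2, and they fell into a pair that was measured in both groups and a pair that was listed only at day 2. Levels are FPKM, fragments scaled to the length of the transcript and to the number of mapped fragments, so they can be set side by side between genes of different length. Each is 1 value for both libraries of a group. No spread between libraries, interval or test could be given for any value, and the number of fragments behind an FPKM is not known. With values from whole organs, more cells of a type and more RNA per cell cannot be told apart.

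LOC_Os01g71740, the permease measured by PCR in the study, was at FPKM 11.8 at day 2 and FPKM 1.82 in control. By PCR over biological replicates, the study reported this permease as higher than control on both days measured in air. The sequenced tissues were among those replicates, so the PCR is not a fully independent measure. Whether the primers amplify this copy alone was not checked here. By FPKM, LOC_Os01g71740 was the highest of the 4 in both groups. The ratio was 6.50-fold, a log2 ratio of 2.70, against a threshold of 2. Over all listed transcripts the summed FPKM of control was 1.86 times that of day 2. With day 2 multiplied by this factor, which makes the sums equal, the log2 ratio was 3.60, and with day 2 divided by it the log2 ratio was 1.80 and under the threshold. LOC_Os01g71710 was at FPKM 4.60 at day 2 and was listed at 0 in control. LOC_Os01g71700 was at FPKM 1.63 at day 2 and was also listed at 0 in control. For these 2 permeases no fold can be given. LOC_Os01g71690, the recA protein locus, was at FPKM 5.78 at day 2 and FPKM 0.193 in control. Its ratio of 30.0-fold, a log2 ratio of 4.91, was the larger of the 2 ratios that could be formed. Its control value is low, and adding 0.1 to both FPKM values lowered its log2 ratio to 4.33. Adding 1 gave 2.51, near the 2.19 that LOC_Os01g71740 then had.

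**Figure D1:**
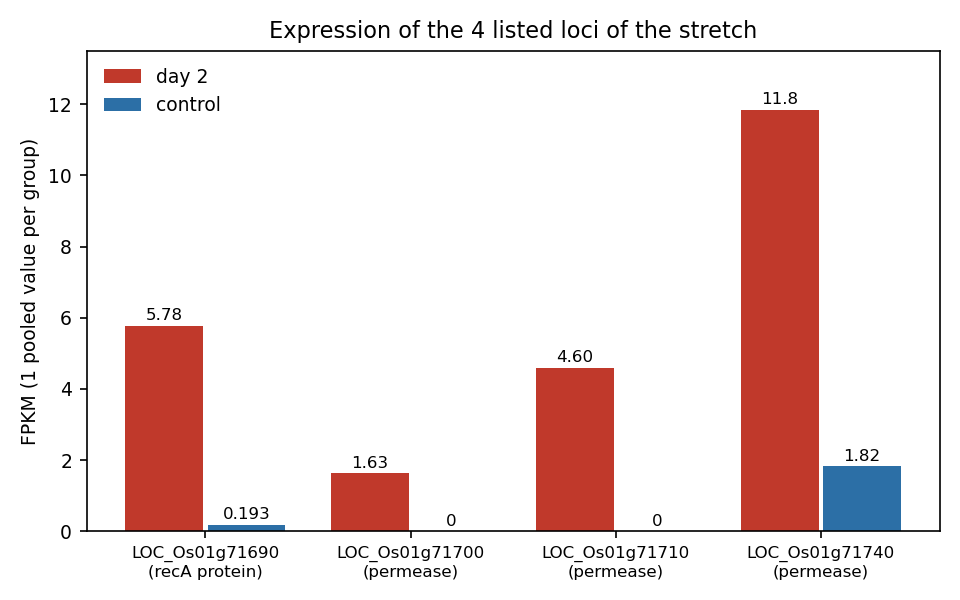
FPKM of the 4 members, with the day 2 bar left of the control bar for each locus; every bar is 1 value for both libraries of its group, so there are no error bars. LOC_Os01g71740 reaches 11.8 at day 2 against 1.82 in control, and the control bars of LOC_Os01g71700 and LOC_Os01g71710 are at 0.

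The count has to be read against the way the tables were made. They hold transcripts that the authors had shortlisted, and every one above 0 in both groups differed by 4-fold or more. Among the 3166 transcripts above 0 in both groups, 62.2% were higher at day 2. The share that was lower was 37.8%. The 2 members of that kind were both higher. Of all 3439 transcripts, 7.62% were at 0 in control and reached at least FPKM 1 at day 2, as did 2 of the 4 members. Counted together, 64.9% of all transcripts were higher or at 0 in control, as were 4 of 4 members, and 34.8% were lower, as were 0 of 4 members. The study also reported genes expressed only in control. No listed transcript is at 0 at day 2, so the share lower leaves those genes out. With 4 transcripts chosen for this change, nothing about the stretch as a whole can be drawn from these shares.

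Among the 3 permeases the order of levels at day 2 was LOC_Os01g71740, then LOC_Os01g71710, then LOC_Os01g71700. The first was 2.58 times the second and 7.26 times the third, and LOC_Os01g71710 was 2.82 times LOC_Os01g71700. Whether these steps exceed the spread between libraries could not be determined. Summed over the 3 copies, permease FPKM was 18.1 at day 2 and 1.82 in control, a log2 ratio of 3.31. LOC_Os01g71740 made up 65.5% of the day 2 sum, LOC_Os01g71710 25.4% and LOC_Os01g71700 9.03%. In control the whole sum came from LOC_Os01g71740. Of the difference between the sums, FPKM 16.3, LOC_Os01g71740 supplied 61.7%, and the copies at 0 in control supplied the rest. Neighbouring copies of like sequence can share reads, and how the mapping divided reads among these 3 was not determined, so the split between copies is uncertain.

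The recA protein locus and LOC_Os01g71740 were closer in level at day 2 than in control. LOC_Os01g71740 was 2.05 times the level of LOC_Os01g71690 at day 2 and 9.47 times it in control. In FPKM the difference between groups was 10.02 for LOC_Os01g71740 and 5.59 for LOC_Os01g71690. The locus with the larger log2 ratio thus had the smaller difference in FPKM. The transcript of LOC_Os01g71690 spans 1061 bases of the genome, and those of the permeases span 2233 to 2700 bases. Such spans include any introns, and the spliced lengths to which FPKM is scaled were not known here. At equal FPKM and depth, a shorter spliced transcript rests on fewer fragments, but which of these is shorter was not determined.

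The 4 transcripts cover 26956 bases of chromosome 1, from 41539757 to 41566712 on the IRGSP-1.0 assembly used by the files. LOC_Os01g71690 runs from 41539757 to 41540817. LOC_Os01g71700 runs from 41549115 to 41551347, after a gap of 8297 bases. LOC_Os01g71710 runs from 41552036 to 41554578 and begins 688 bases after LOC_Os01g71700 ends. LOC_Os01g71740 runs from 41564013 to 41566712, after a further 9434 bases. The 2 copies at 0 in control are thus the closest pair, and the copy that was expressed in control stands apart from them. Of the 6 locus numbers that steps of 10 allow in the stretch, LOC_Os01g71720 and LOC_Os01g71730 are not among the listed transcripts and were not analysed here. A RefSeq gene table of another rice assembly (ASM3414082v1) held all 4 members in the same order, matched by Entrez IDs. In it no gene stands between LOC_Os01g71690 and LOC_Os01g71700 or between LOC_Os01g71700 and LOC_Os01g71710. Between LOC_Os01g71710 and LOC_Os01g71740 it places 1 protein-coding gene and 1 long non-coding RNA gene.

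**Figure D2:**
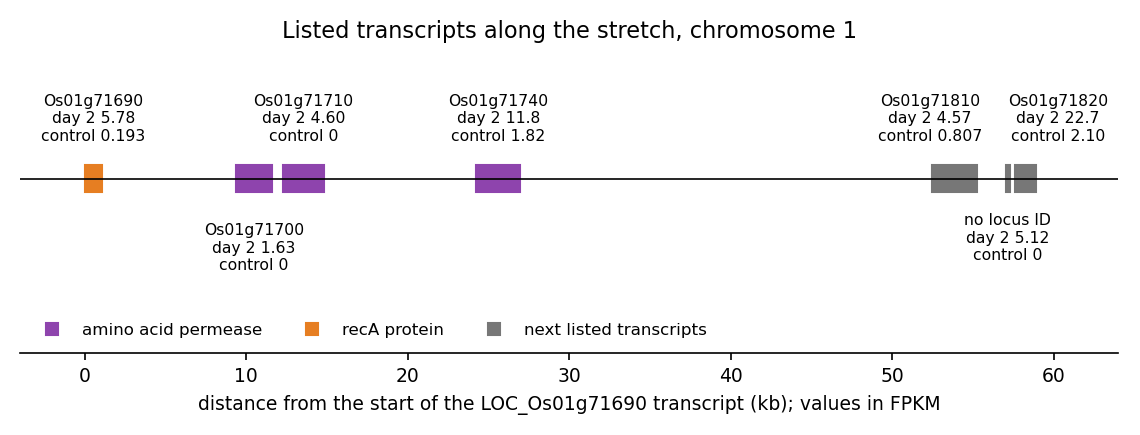
Map to scale of the listed transcripts, with distance in kb from the start of the LOC_Os01g71690 transcript along the horizontal axis and the FPKM of day 2 above that of control at each; purple boxes are permeases, the orange box is the recA protein locus and grey boxes are the next listed transcripts. The permeases at 0 in control are 688 bases apart, and the next listed transcript begins 25502 bases beyond LOC_Os01g71740.

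The stretch stood alone among the listed transcripts on one side and was followed by another gene group on the other. The nearest listed transcript before it, LOC_Os01g71270, ends 295884 bases away and was at FPKM 2.99 at day 2 and FPKM 0.289 in control. The others within the 3 nearest on that side, LOC_Os01g71140 and LOC_Os01g71094, were lower at day 2, with log2 ratios of -2.31 and -3.02. After the stretch come glycosyl hydrolases of family 17, enzymes that cut cell wall glucans. The first, LOC_Os01g71810, was at FPKM 4.57 at day 2 and FPKM 0.807 in control. All 3 of the nearest listed transcripts on that side were higher at day 2 or at 0 in control. Of all listed transcripts 64.9% were so and 34.8% were lower, so nothing is read from these few neighbours.

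The permeases were not abundant among the listed transcripts. At day 2 LOC_Os01g71740 ranked 1292 of 3439 by FPKM, LOC_Os01g71690 ranked 1919, LOC_Os01g71710 ranked 2123 and LOC_Os01g71700 ranked 2922. The median FPKM of all listed transcripts at day 2 was 7.15, so LOC_Os01g71740 alone of the 4 lay above it. By log2 ratio LOC_Os01g71740 was 1276 of the 1970 higher transcripts, under their median of 3.13. LOC_Os01g71690 was 293 of the same 1970.

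Starting level and ratio are linked in such tables, so the members were also set beside transcripts that began at a like level. Of the 537 higher transcripts with control FPKM from 1 to 3, the median at day 2 was FPKM 12.4, with quartiles of 8.61 and 21.9. LOC_Os01g71740 lay in the middle of that range and above 250 of the 537. Of the 320 higher transcripts with control FPKM from 0.1 to 0.3, the median at day 2 was FPKM 2.96, with quartiles of 1.80 and 6.08. LOC_Os01g71690 lay towards the upper quartile and above 232 of the 320.

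**Figure D3:**
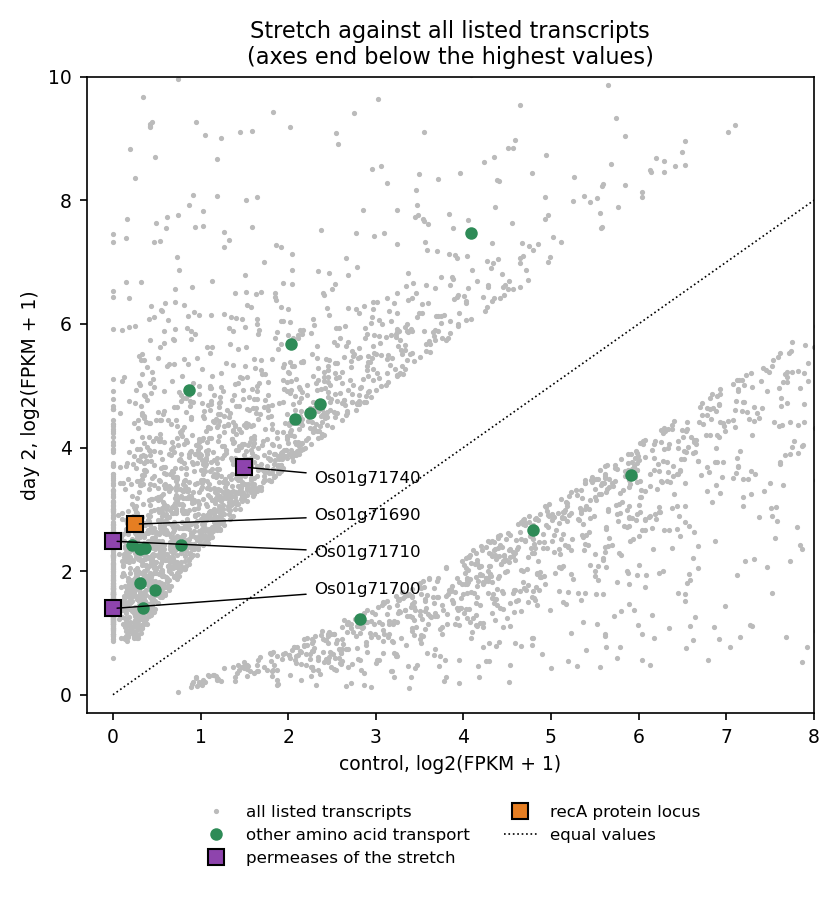
Control level (horizontal axis) and day 2 level (vertical axis) as log2(FPKM + 1) for listed transcripts, of which 3254 of 3439 fall inside the axes; squares are the 4 members, green points the other transcripts of the study's amino acid transport category, and the dotted line marks equal values. The empty band along that line is the change under 4-fold that the tables leave out, and all 4 squares lie above it.

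For the permeases at 0 in control the comparison is with the 273 transcripts listed at 0 there. Their median at day 2 was FPKM 2.46, with quartiles of 1.58 and 5.17. LOC_Os01g71710 ranked 84 of the 273 and LOC_Os01g71700 ranked 202, so the first was above and the second below that median. An exact 0 in a table of this kind was not told apart from a failed estimate. Of the 600 listed transcripts with a genomic span of 2000 to 3000 bases, as these permeases have, 45 were at 0 in control. The lowest control value above 0 among them was FPKM 0.0637, and 6 were between 0 and FPKM 0.1. Values well under that of LOC_Os01g71740 in control were thus recorded for transcripts of this span.

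Pairs of neighbours that were both at 0 in control were counted, in tables where 273 of 3439 transcripts were at 0 there. Next to each other along a chromosome stood 3129 pairs of listed transcripts with different locus IDs, and 24 of these pairs were both at 0 in control. With successive locus numbers there were 265 pairs, of which 4 were both at 0. Of the 61 pairs that overlapped or lay at most 1000 bases apart, the pair of LOC_Os01g71700 and LOC_Os01g71710 was the only one with both at 0. No test was made and nothing is read from these counts, since the stretch had been chosen with these values known.

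Carriers of the same substrate elsewhere in the genome were then taken from the study's own amino acid transport category, which it drew up from the changed transcripts of these libraries. The category is thus no independent evidence of a direction. It holds 17 loci with 19 listed transcripts, of which 14 were higher at day 2, 2 were at 0 in control and 3 were lower. The transcripts at 0 in control were those of LOC_Os01g71700 and LOC_Os01g71710 and no others. Higher or at 0 in control were 84.2% of the 19, against 64.9% of all listed transcripts. The 16 that were higher or at 0 in control became 6 with FPKM of at least 1 in both groups, 7 with FPKM of at least 5 in 1 group and 8 with day 2 divided by the factor of 1.86, and the 3 lower became 0 with day 2 multiplied by it. Without the stretch, 13 of 16 transcripts (81.2%) were higher, from 12 of 14 loci. The median log2 ratio of the category was 2.70 over transcripts above 0 in both groups, against 2.35 over all such transcripts listed.

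Within the category, LOC_Os01g71740 ranked 7 of 19 by day 2 FPKM and 9 of 19 by control FPKM, LOC_Os01g71710 ranked 10 of 19 at day 2 and LOC_Os01g71700 ranked 18 of 19. The highest at day 2 was LOC_Os06g08080, at FPKM 177.0 at day 2 and FPKM 16.0 in control. It and LOC_Os01g23580 were described as vacuolar proton pyrophosphatases, pumps that energise the vacuole membrane and do not carry amino acids. LOC_Os03g14080 and LOC_Os05g37470 were described as auxin carriers. With these 4 loci and the stretch left out, 9 of 12 transcripts were higher and 3 lower. Of all listed transcripts above 0 in both groups, 62.2% were higher and 37.8% lower.

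The amino acid permeases called AAP and the proline transporters called ProT import amino acids together with protons in Arabidopsis. Of loci described by their likeness to these, 4 of 4 were higher at day 2, with log2 ratios from 2.71 to 5.14. Among all listed transcripts above 0 in both groups, 62.2% were higher. LOC_Os11g09020, like Arabidopsis AAP3, had the largest ratio of the category, with FPKM 29.4 at day 2 and FPKM 0.833 in control. LOC_Os04g39489, like AAP7, was at FPKM 21.1 at day 2 and FPKM 3.22 in control, the nearest of these loci to LOC_Os01g71740 in level. Summed, these 4 loci were at FPKM 59.0 at day 2 and FPKM 4.46 in control, above the permease sum of the stretch in both groups.

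The lower loci of the category were LOC_Os02g54730 and LOC_Os11g05690. LOC_Os02g54730, an amino acid transporter family protein with 2 listed transcripts, had the lowest log2 ratio, -2.46, for the transcript at FPKM 10.8 at day 2 and FPKM 59.2 in control. LOC_Os11g05690, described as like the Arabidopsis cationic amino acid transporter CAT7, was at FPKM 1.33 at day 2 and FPKM 6.08 in control. It is filed with the PotE kind of permeases, as are LOC_Os01g71700 and LOC_Os01g71740. The only other locus so filed, LOC_Os03g25920, was at FPKM 4.36 at day 2 and FPKM 0.715 in control. The PotE kind outside the stretch thus held 1 lower and 1 higher locus.

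**Figure D4:**
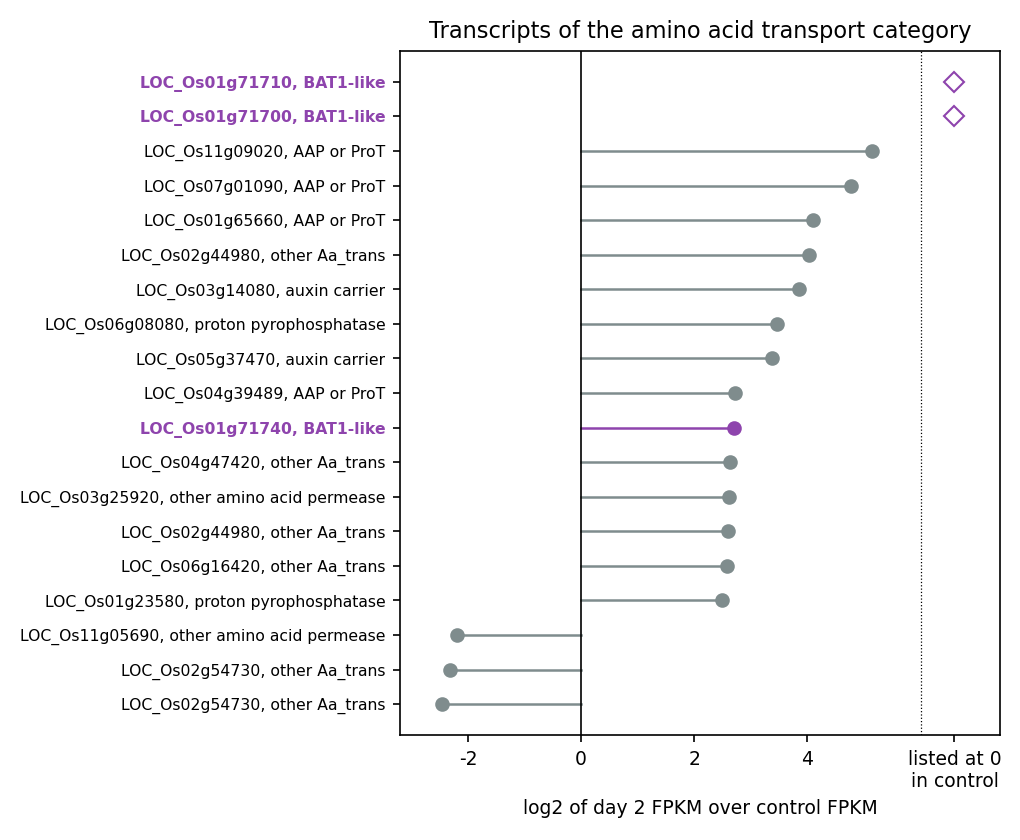
Log2 ratio of day 2 over control FPKM (horizontal axis) for each transcript of the study's amino acid transport category, ordered by ratio, with the permeases of the stretch in purple; open diamonds, right of the dotted line, are transcripts listed at 0 in control and have no ratio. The 2 diamonds are LOC_Os01g71710 and LOC_Os01g71700, and LOC_Os01g71740 lies at 2.70 in the middle of the category.

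The loci of the category whose values were nearest to LOC_Os01g71740 were found by the distance between pairs of log2(FPKM + 1) values over the 2 groups. They were LOC_Os04g39489 at a distance of 0.97, LOC_Os06g16420 at 1.16 and LOC_Os02g44980 at 1.34 for the nearer of its transcripts. Their log2 ratios were 2.71, 2.58 and 2.60. The other permeases of the stretch were further away, LOC_Os01g71710 at 1.92 and LOC_Os01g71700 at 2.73. Only 2 values stand behind each distance.

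Carriers of other forms of nitrogen were listed as well. In the study's peptide category 16 of 21 transcripts from 20 loci were higher or at 0 in control and 5 were lower, a share of 76.2% higher against 64.9% of all listed transcripts. The 16 became 7 with FPKM of at least 1 in both groups and 10 with a pseudocount of 1, while the 5 lower stayed 5. Both ammonium carrier loci were higher and both nitrate carrier loci were lower, beside 64.9% of all listed transcripts that were higher or at 0 in control and 34.8% that were lower. These lists too were drawn up by the study from the same libraries.

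For its network, the study looked up predicted miRNA targets in the transcript data of these libraries. Whether its target list was cut to changed loci first was not determined, so nothing is read from every target being listed. Predicted for miRNA_75 were 13 loci, all of them listed, and 3 were the permeases of the stretch. The other 10 loci had 12 listed transcripts, of which 7 were higher and 5 lower at day 2, with log2 ratios from -2.95 to 5.46. The predicted targets outside the stretch thus went both ways, beside 64.9% of all listed transcripts that were higher or at 0 in control and 34.8% that were lower. The 3 permeases were chosen for their change, so nothing is read from their direction here. LOC_Os01g71740 was the 1 locus predicted for miRNA_23. The study reported miRNA_75 as lower during senescence, by sequencing and by quantitative PCR, and its network kept only targets that changed inversely. The levels of the miRNAs were not analysed here.

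The coleoptile encloses the green first leaf and can itself turn green in air, so genes of photosynthesis were looked up. They do not tell leaf cells from greening coleoptile cells. Of 5 loci for the Rubisco small subunit and chlorophyll a/b binding proteins, 4 were higher and 1 was lower at day 2. Their summed FPKM was 1216 at day 2 and 189.6 in control, and none was at 0 in control. At day 2 no listed transcript of any kind was at 0. LOC_Os12g19381 had the largest log2 ratio, 5.59, and LOC_Os12g17600 was lower, at FPKM 9.82 at day 2 and FPKM 43.1 in control. Most of these photosynthesis transcripts were thus higher, as were 62.2% of all listed transcripts above 0 in both groups. By quantitative PCR the study reported a Rubisco gene as falling during senescence. The part of leaf or greening cells in the values of the permeases was not tested. The study names no marker that defines the coleoptile itself.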

How the data were processed

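RNA from coleoptiles was sequenced in paired ends from 2 day 2 and 2 control libraries. Per the methods of the study, the authors filtered reads by quality with NGS QC Toolkit, mapped them to IRGSP-1.0 with TopHat, assembled transcripts with Cufflinks and Cuffmerge and compared the groups with Cuffdiff. The deposited values are FPKM, 1 value per transcript and group, over transcripts shortlisted by the authors with a p-value and a log2 ratio of at least 2, or for expression specific to day 2. The total of such a table is no library depth. The study reports the high-quality reads of each library, but how many fragments were mapped was not known here.

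The tables were joined by transcript ID and blanks around locus IDs were removed. The log2 ratio of day 2 over control was taken with no pseudocount, and called at an absolute value of 2 or more. Transcripts at 0 in control were called at FPKM 1 or more at day 2. No limma test was possible with 1 value per group. The members and lists were chosen with earlier results of these data known. Named loci were the members, the loci of the study's amino acid category, the 3 listed transcripts nearest on each side, and the 3 loci most like LOC_Os01g71740. Lists and descriptions came from the study's supplementary tables, sequences likewise, and Entrez IDs were matched to RefSeq. Calling was checked on simulated data. Python 3.11.15 and pandas 2.3.3 were used.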

Additional observations from a re-analysis of the deposited data

How the results depend on the processing

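No paired analysis was possible because the tables carry 1 pooled value per group, which also left no replicate to omit. With the ratio of summed control to summed day 2 FPKM, 1.86, as a scaling factor, the log2 ratio of LOC_Os01g71740 went from 2.70 to 1.80 with day 2 divided by it, which is under the threshold of 2, and to 3.60 with day 2 multiplied by it, which makes the sums equal. That of LOC_Os01g71690 went from 4.91 to 4.01 and 5.81. A pseudocount of 1 gave 2.19 for LOC_Os01g71740 and 2.51 for LOC_Os01g71690, and a pseudocount of 0.1 gave 4.33 for LOC_Os01g71690, whose control value is low. With FPKM below 1 taken as 0, LOC_Os01g71690 joined the members at 0 in control, which made 3 in place of 2. In the amino acid category 16 transcripts were higher, but 6 with FPKM 1 or more in both groups, 7 with FPKM 5 or more in 1 group and 8 with day 2 divided by the factor, while 3 were lower, but 0 with day 2 multiplied by it. In the peptide category 16 were higher, but 7 with FPKM 1 or more in both groups and 10 with a pseudocount of 1. Of all listed transcripts 2232 were higher, but 1000 and 1306 under these settings. The filters take out transcripts low in control, and no transcript under 4-fold is listed, so these shifts follow from their construction. In all, 17 of 32 alternative values stayed within the set range (0.1 for a log2 ratio, 1.5 times for a count).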
